A study of Sus scrofa with 13 samples.

Results

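Solute carriers are the membrane proteins, named SLC with a family number, that move ions, nutrients and metabolites across cell and organelle membranes. Members were all genes whose symbol is SLC followed by digits and a letter, with the probe set of the highest mean over all arrays standing for a gene that had several. The rule used names only and no measured difference. It found 205 of the 10283 genes that a probe set of the array names singly, in 43 families. The SLC25 family supplied 32 of them and is described apart from the other 173, of which 141 belong to families that work mainly at the plasma membrane and 32 to families that work mainly on membranes inside the cell. Among the 205 are 3 adaptor proteins named after the carriers they bind (SLC4A1AP, SLC9A3R1 and SLC9A3R2).

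The samples were biceps femoris muscle, a hind limb muscle, of 13 German Landrace pigs, 1 array per animal. At 2 days of age 4 pigs were knockouts for dystrophin (DMD KO) and 3 were wild type (WT), and at 3 months the genotypes had 3 pigs each. DMD KO animals carried a deletion of exon 52 of DMD, the gene of the protein that anchors the fibre's cytoskeleton to its surroundings, brought in with an altered genomic clone, and were cloned by nuclear transfer from modified kidney cells. Their muscle was taken as soon as they had died, that of age-matched WT animals after euthanasia, so genotype, cloning and manner of death cannot be told apart in any genotype difference.

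Most carriers of the SLC25 family sit in the inner mitochondrial membrane, and a peroxisomal member is among the exceptions. The family exchanges the nucleotides, phosphate, dicarboxylates, amino acids and acylcarnitines on which oxidative metabolism runs. In muscle the best known is the ADP/ATP carrier, which returns ATP from the matrix to the cytosol where creatine kinase and myosin use it. Plasma membrane families set the supply of glucose, amino acids, lactate and choline and, together with the sodium pump, the ionic balance of the fibre.

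Values are log2 levels, so a difference of 1 is a doubling, and levels of different probe sets were not set against each other. Differences were tested with limma across all 21893 probe sets, a gene was called at a Benjamini-Hochberg adjusted p under 0.05, and ± after a difference is its standard error. Array medians lay between 7.32 and 7.38 and lower quartiles between 6.53 and 6.61. Precision is limited by the few arrays, and signal over background was not analysed here, so no fold is given where a group mean fell below that quartile range, as the mean over all arrays did for 36 members (2 of them in SLC25). The array least like the others was WT replicate 3 at 2 days, with a mean correlation of 0.918 to them. It scored 61.1 on a leading axis that held 44.9% of the spread within groups. The same array held the highest of the 13 values for 50 of the 173 other carriers (28.9%) and 7 of the 32 SLC25 members (21.9%), against 24% of all singly named genes. It held the lowest for 17 (9.83%) and 5 (15.6%) of them, against 21.2%. DMD itself differed by 0.11 ± 0.17 (adjusted p = 0.705) at 2 days and -0.22 ± 0.18 (adjusted p = 0.528) at 3 months, and where its probes lie relative to exon 52 is not known here, so it does not check the labels. In a bulk sample fewer cells of a type and less RNA per cell cannot be told apart.

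Carriers called between genotypes were a small share of the 205, and more of them were higher than lower in DMD KO, a split that at 2 days depends on the setting. At 2 days 15 members were higher and 3 lower in DMD KO. That is 18 of 205 (8.78%), against 11.4% of all singly named genes called (8.06% higher and 3.32% lower). At 3 months 12 were higher and 2 lower, or 6.83%, against 7.36% in the background (5.76% higher and 1.6% lower). Both shares were a little under the background. The median difference over the 205 was -0.07 at each age, beside -0.02 and -0.03 over all singly named genes. Values of the genotypes did not overlap for 46 members at 2 days, against 26.9% of all singly named genes, and for 50 at 3 months, against 26.0%. Of 30 members called at either age only SLC3A1 and SLC5A4 were called at both, and both were higher in DMD KO each time. A call at a single age does not show that the ages differ. The genotype difference itself changed between ages for 12 members (5.85%, against 6.17%, with 3.75% higher and 2.41% lower), being higher at the older age for 4 and lower for 8.

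The counts move with single arrays. Here and for the genes, arrays were dropped singly, never together, and a number in brackets after a dropped array or another setting is the adjusted p it gave. Calls lost with the replicate number as a block are left out of the gene lists and counted in the closing section. For carriers outside SLC25 the total of 16 at 2 days was 10, 9 and 7 on dropping DMD KO replicates 1, 2 and 4, and 24 and 6 on dropping WT replicates 2 and 3. The total of 12 at 3 months was 5 without DMD KO replicate 3 and 6 and 4 on dropping WT replicates 2 and 3. With the score on the leading axis as a covariate 5 of these carriers were higher and 4 lower at 2 days, in place of 14 and 2. All singly named genes then had 544 higher and 513 lower, where 8.06% were higher and 3.32% lower without the covariate. The more even split under this setting was thus not particular to the carriers. With array weights 22 of these carriers were higher and 18 lower, and 1603 and 1107 of all singly named genes.

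**Figure D1:**
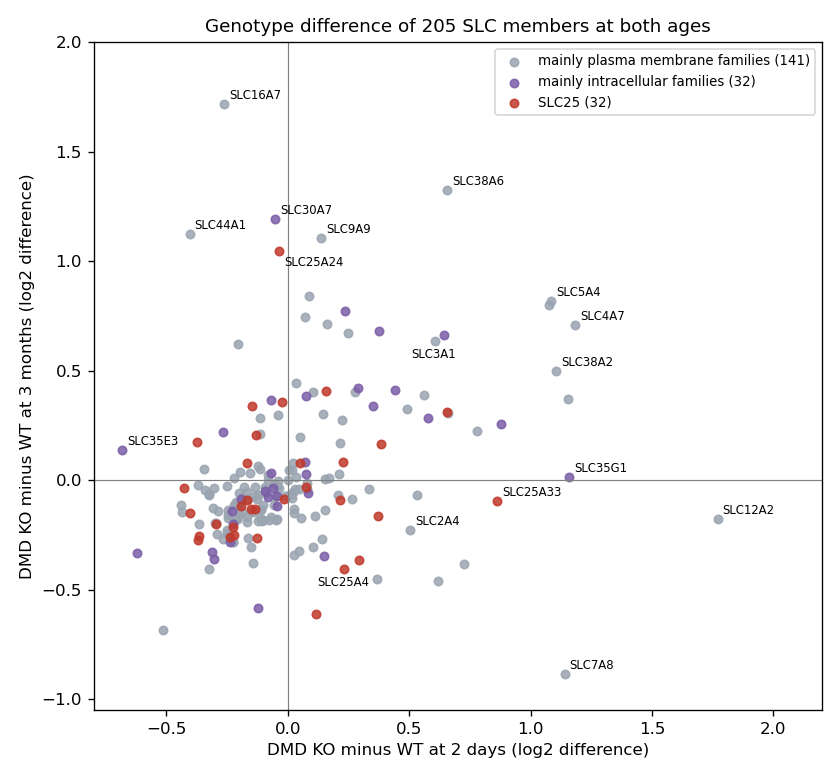
Each point is 1 of the 205 members, with the log2 difference DMD KO minus WT at 2 days on the horizontal axis and at 3 months on the vertical axis, from different animals. Red points are the 32 SLC25 members, grey the 141 of mainly plasma membrane families and purple the 32 of mainly intracellular families. SLC5A4 lies high on both axes, SLC12A2 far out on the 2-day axis alone, SLC16A7 high on the 3-month axis alone, and SLC7A8 at 1.14 and -0.89.

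Within SLC25 few members were called between genotypes, and the genotype difference of the ADP/ATP carrier and of the oxoglutarate/malate carrier was lower at 3 months than at 2 days. A change between ages was called for these 2 of 32 members (6.25%), near the 6.17% of all singly named genes. At 2 days 1 of 32 members was called higher (SLC25A33) and 1 lower (SLC25A17), or 6.25% against 11.4% of all singly named genes, and at 3 months again 1 higher (SLC25A24) and 1 lower (SLC25A4), against 7.36%. The family's median difference was -0.13 at 2 days and -0.09 at 3 months, beside -0.02 and -0.03 over all singly named genes. The first of these was -0.01 without WT replicate 2. The 2 calls at 2 days became 1 without DMD KO replicate 1, 3 or 4 and 4 without WT replicate 2. The 2 at 3 months became 1 without DMD KO replicate 1 or WT replicate 1 or 3, and 0 without DMD KO replicate 3 or WT replicate 2. With array weights 5 members were higher and 7 lower at 2 days, beside 1603 and 1107 of all singly named genes.

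**Figure D2:**
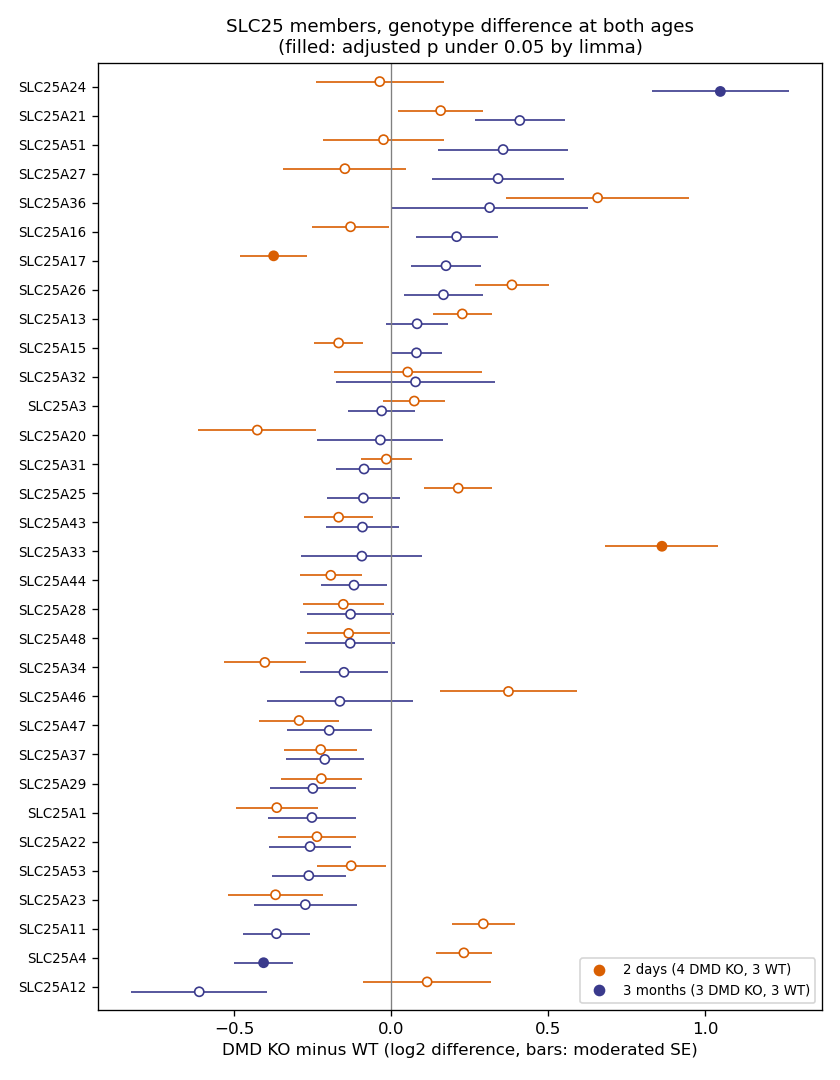
Log2 differences DMD KO minus WT of the 32 SLC25 members at 2 days and at 3 months, with bars for the standard error and filled points for members called. Most members lie close to 0, with SLC25A33 at 0.86 at 2 days and SLC25A24 at 1.05 and SLC25A4 at -0.41 at 3 months among those away from it.

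SLC25A4 (probe set 15235730), the ADP/ATP carrier of heart and skeletal muscle, read 12.73, 12.48, 12.59 and 12.62 in DMD KO and 12.40, 12.43 and 12.29 in WT at 2 days. At 3 months it read 11.51, 11.63 and 11.45 in DMD KO and 11.95, 12.02 and 11.84 in WT. Every DMD KO animal was above every WT animal at 2 days and below every WT animal at 3 months. The difference was 0.23 ± 0.09 (adjusted p = 0.115) at 2 days, not called, and -0.41 ± 0.09 (adjusted p = 0.0231) at 3 months, called as lower. That the second was below the first passed its own test, at -0.64 ± 0.13 (adjusted p = 0.013). With age the carrier fell in both genotypes, with differences of -0.43 ± 0.09 (adjusted p = 0.0289) in WT and -1.07 ± 0.09 (adjusted p = 1.79e-05) in DMD KO, the latter 2.1-fold. The 3-month genotype call ended with an adjusted p of 0.0806 in the fit of the 3-month arrays alone, of 0.0547 with trend and robust moderation, of 0.0664 and 0.101 on dropping DMD KO replicates 1 and 3 and of 0.0505 and 0.0966 on dropping WT replicates 1 and 2. The fall in WT ended with 0.223 and 0.0665 under the first pair of settings, with 0.0787 and 0.0772 on dropping WT replicates 1 and 2 at 2 days, and with 0.0703 and 0.114 on dropping WT replicates 1 and 3 at 3 months. The probe set shared by SLC25A5 and SLC25A6, the other ADP/ATP carriers, was left out, and SLC25A31, the germline form, lay between 4.09 and 4.32 on all arrays.

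SLC25A3 brings in the phosphate that ATP synthase needs. It read 11.79, 11.47, 11.68 and 11.63 in DMD KO and 11.53, 11.68 and 11.50 in WT at 2 days and 11.21, 11.43 and 11.35 in DMD KO and 11.40, 11.45 and 11.24 in WT at 3 months, with overlap at both ages. Its differences were 0.07 ± 0.10 (adjusted p = 0.653) and -0.03 ± 0.11 (adjusted p = 0.884), the latter with a 95% interval from -0.26 to 0.20. The phosphate carrier thus gave no call where the ADP/ATP carrier did, and the difference between these genes was not tested.

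SLC25A24, SLC25A23 and SLC25A25 are calcium-sensitive carriers that trade ATP-Mg for phosphate and so set the size of the matrix nucleotide pool. SLC25A24 read 7.23, 7.74, 7.62 and 7.38 in DMD KO and 7.93, 7.70 and 6.96 in WT at 2 days, with overlap, and 8.30, 8.13 and 8.27 in DMD KO and 7.46, 7.05 and 7.05 in WT at 3 months, with all 3 DMD KO animals above all 3 WT animals. Its 3-month difference was 1.05 ± 0.22 (adjusted p = 0.0132), or 2.07-fold, after -0.04 ± 0.20 (adjusted p = 0.922) at 2 days. With age it rose by 0.74 ± 0.20 (adjusted p = 0.0431) in DMD KO, beside -0.34 ± 0.22 (adjusted p = 0.629) in WT, and the change of the genotype difference was 1.08 ± 0.30 (adjusted p = 0.0583). The 3-month call ended without DMD KO replicate 3 (0.0531) and on dropping WT replicates 2 and 3 (0.0583 and 0.0617). The rise with age ended under quantile normalization (0.0509), on dropping DMD KO replicates 1, 3 and 4 at 2 days (0.117, 0.0676 and 0.109), and on dropping DMD KO replicates 1 to 3 at 3 months (0.136, 0.0927 and 0.122). SLC25A23 and SLC25A25 gave -0.37 ± 0.15 (adjusted p = 0.14) and 0.21 ± 0.11 (adjusted p = 0.221) at 2 days.

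Malate and aspartate carriers pass the reducing equivalents of glycolysis into the matrix. SLC25A11, which exchanges oxoglutarate for malate, read 9.0, 8.82, 8.63 and 8.76 in DMD KO and 8.53, 8.64 and 8.37 in WT at 2 days and 7.88, 7.93 and 7.92 in DMD KO and 8.31, 8.34 and 8.17 in WT at 3 months. DMD KO and WT values overlapped at 2 days through 1 DMD KO animal (8.63), and at 3 months every DMD KO value lay below every WT value. Neither genotype difference was called, at 0.29 ± 0.10 (adjusted p = 0.0845) and -0.37 ± 0.11 (adjusted p = 0.0699), but their change between ages was, at -0.66 ± 0.15 (adjusted p = 0.0218). The difference between 3 months and 2 days was -0.90 ± 0.10 (adjusted p = 0.000135) in DMD KO, a fall, and -0.24 ± 0.11 (adjusted p = 0.375) in WT, not called. The change between ages lost its call without DMD KO replicate 1 (0.0516) or WT replicate 2 (0.056) at 3 months. SLC25A12, the aspartate/glutamate carrier of excitable tissue, read 8.70, 9.04 and 8.73 in DMD KO and 9.83, 9.30 and 9.17 in WT at 3 months, without overlap, but its difference of -0.61 ± 0.22 (adjusted p = 0.138) was not called. Its sister SLC25A13 gave 0.23 ± 0.09 (adjusted p = 0.141) and 0.08 ± 0.10 (adjusted p = 0.666).

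SLC25A33, a pyrimidine nucleotide carrier linked to mitochondrial DNA and RNA synthesis, was the member called higher at 2 days. It read 7.05, 6.75, 7.44 and 7.63 in DMD KO and 6.15, 6.39 and 6.53 in WT, without overlap, a difference of 0.86 ± 0.18 (adjusted p = 0.0113). At 3 months it read 6.34, 6.15 and 6.0 in DMD KO and 6.24, 6.19 and 6.35 in WT, a difference of -0.09 ± 0.19 (adjusted p = 0.802), and the difference with age in DMD KO was -1.06 ± 0.18 (adjusted p = 0.0027), a fall that kept its call under each alternative that measured it. All groups but DMD KO at 2 days had means below the arrays' lower quartiles. In the fit of the 2-day arrays alone the first call ended at 0.0527. SLC25A36, the other pyrimidine nucleotide carrier, gave 0.66 ± 0.29 (adjusted p = 0.166) at 2 days, with WT values of 8.35, 8.42 and 6.95, so the low WT mean rests on replicate 3.

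SLC25A17, the carrier placed in the peroxisome, read 7.09, 7.28, 7.32 and 7.21 in DMD KO and 7.57, 7.75 and 7.48 in WT at 2 days. It was lower in every DMD KO animal, with a difference of -0.38 ± 0.11 (adjusted p = 0.0436), and gave 0.17 ± 0.11 (adjusted p = 0.437) at 3 months. This call ended without each of the 7 arrays in turn (0.0515 to 0.103), in the fit of the 2-day arrays alone (0.0738), under quantile normalization (0.0546) and under median centring (0.0544). SLC25A20, which brings acylcarnitines in for fat oxidation, read 7.61, 7.92, 7.82 and 7.77 in DMD KO and 8.49, 8.41 and 7.72 in WT at 2 days, with 7.72 in WT replicate 3 inside the DMD KO range. Its differences of -0.43 ± 0.19 (adjusted p = 0.164) and -0.04 ± 0.20 (adjusted p = 0.933) were not called. The mitoferrins SLC25A37 and SLC25A28, which carry iron for haem and iron-sulphur clusters, gave -0.23 ± 0.12 (adjusted p = 0.231) and -0.15 ± 0.13 (adjusted p = 0.459) at 2 days. SLC25A26, the carrier of the methyl donor S-adenosylmethionine, gave 0.38 ± 0.12 (adjusted p = 0.0581), just short of a call. SLC25A51, the mitochondrial NAD carrier, gave -0.03 ± 0.19 (adjusted p = 0.944) at 2 days and 0.36 ± 0.21 (adjusted p = 0.382) at 3 months.

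**Figure D3:**
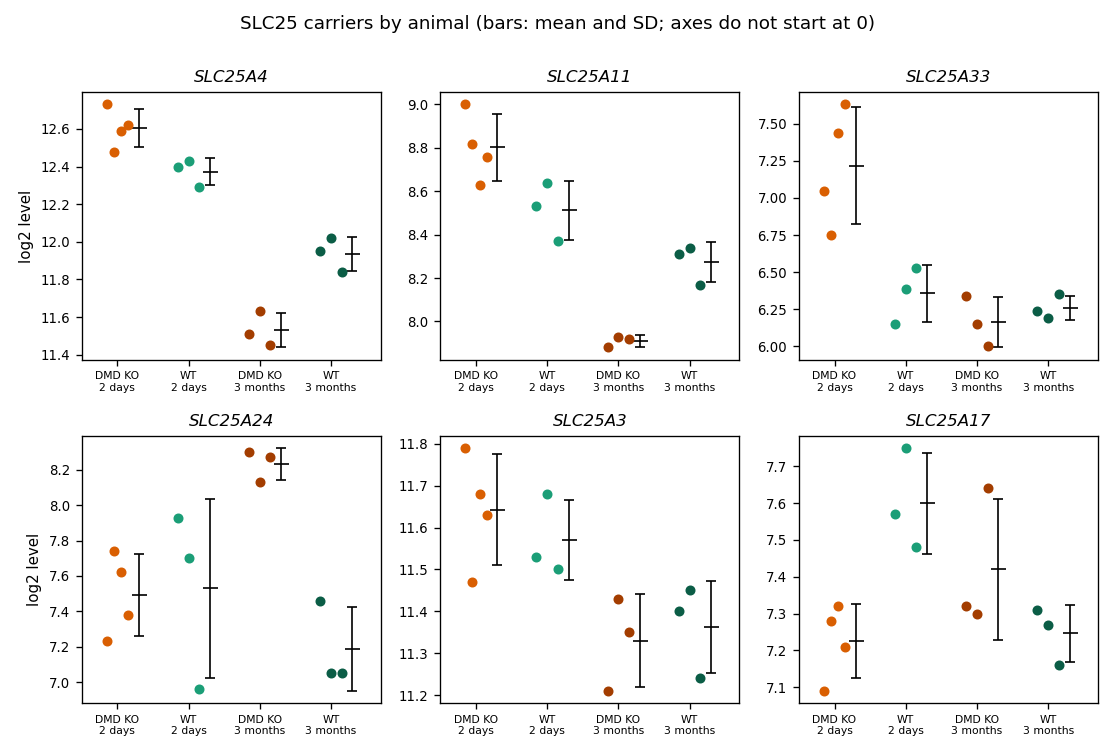
Log2 levels of 6 SLC25 members in each animal, by genotype and age, with bars for the group mean and SD. SLC25A4 and SLC25A11 lie lowest in DMD KO at 3 months, SLC25A33 highest in DMD KO at 2 days and SLC25A24 highest in DMD KO at 3 months. SLC25A3 has no gap between genotypes.

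Mitochondrial transport proteins outside the SLC names were read from a list of 21 genes, 15 of them measured. At 2 days 2 were called higher (13.3%, against 8.06%) and at 3 months 1 (6.67%, against 5.76%), with a list median of 0.17 at 2 days beside -0.02 over all singly named genes. VDAC3, a pore of the outer membrane, read 9.82, 9.82, 9.54 and 9.68 in DMD KO and 9.34, 9.20 and 8.50 in WT at 2 days, a difference of 0.70 ± 0.16 (adjusted p = 0.0193). MTCH1, an outer membrane protein of the SLC25 fold, gave 0.58 ± 0.14 (adjusted p = 0.02). MCU, the pore of the calcium uniporter, read 11.14, 11.04 and 10.93 in DMD KO and 10.18, 10.06 and 9.65 in WT at 3 months, a difference of 1.07 ± 0.21 (adjusted p = 0.00951) or 2.1-fold. The uncoupling proteins UCP2 and UCP3, which share the SLC25 fold, gave 0.10 ± 0.12 (adjusted p = 0.658) and -0.17 ± 0.09 (adjusted p = 0.359) at 3 months. MPC2, a subunit of the pyruvate carrier, gave 0.45 ± 0.20 (adjusted p = 0.171) and -0.52 ± 0.22 (adjusted p = 0.209) and fell with age in DMD KO, with a difference of -1.04 ± 0.20 (adjusted p = 0.00588). The call on MCU ended without WT replicate 3 (0.0503), that on MTCH1 with the axis as covariate (0.0552) and without DMD KO replicate 4 (0.0618) or WT replicate 3 (0.0782). That on VDAC3 ended in the fit of 2-day arrays alone (0.0781), under quantile normalization (0.0504), with the axis (0.0659) and without DMD KO replicate 2 (0.0528), and its value was 0.44 without WT replicate 3 and 0.41 with array weights.

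CKMT2, the mitochondrial creatine kinase that takes ATP from the ADP/ATP carrier, was, like SLC25A4, highest in DMD KO at 2 days and lowest in DMD KO at 3 months. It read 10.01, 9.64, 9.39 and 9.80 in DMD KO and 9.15, 9.53 and 8.99 in WT at 2 days and 8.26, 8.54 and 7.91 in DMD KO and 9.64, 9.62 and 9.32 in WT at 3 months. The 3-month difference was -1.29 ± 0.20 (adjusted p = 0.00184), 2.44-fold lower in DMD KO without overlap, after 0.49 ± 0.18 (adjusted p = 0.11) at 2 days, and the change between ages was -1.78 ± 0.27 (adjusted p = 0.00227). CKMT2 comes from a list of 22 partners of carriers, 15 of them measured, of which 4 were called higher at 2 days (26.7%, against 11.4% of all singly named genes called either way), and 3 higher and 2 lower at 3 months (33.3%, against 7.36%). FTL, the ferritin light chain, gave 0.92 ± 0.17 (adjusted p = 0.00554) and 0.97 ± 0.18 (adjusted p = 0.00565), or 0.50 and 0.52 as the mean of its probe sets. TBC1D1 is given with GLUT4, and the others were GATM, an enzyme of creatine synthesis, higher at both ages, and 2 sodium pump subunits, ATP1B1, higher at 2 days, and ATP1B2, lower at 3 months, with calls that ended under some of the alternatives.

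Families of carriers for amino acids and amine-like solutes held 33 members. Of these 5 were higher at 2 days (15.2%, where 8.06% of all singly named genes were higher) and 2 at 3 months (6.06%, against 5.76%). All 5 calls at 2 days ended without WT replicate 3. SLC38A2 and SLC7A8 carry neutral amino acids, SLC7A2 the cationic ones including arginine, and SLC3A1 is the heavy subunit that brings a cystine and dibasic amino acid carrier to the membrane. SLC7A8 read 8.50, 7.83, 8.80 and 9.24 in DMD KO and 7.30, 7.48 and 7.58 in WT at 2 days and 7.48, 7.63 and 7.98 in DMD KO and 9.10, 8.40 and 8.24 in WT at 3 months. DMD KO animals were all above WT at 2 days and all below WT at 3 months. The differences were 1.14 ± 0.28 (adjusted p = 0.0262), called, and -0.89 ± 0.30 (adjusted p = 0.122), not called, and the change between ages, -2.03 ± 0.42 (adjusted p = 0.0139), kept its call under each alternative tried. SLC7A2 read 9.13, 9.04, 8.79 and 8.52 in DMD KO and 8.54, 8.05 and 7.84 in WT at 2 days, where DMD KO replicate 4 (8.52) lay below WT replicate 1 (8.54). Its difference was 0.73 ± 0.18 (adjusted p = 0.0276) at 2 days and -0.38 ± 0.20 (adjusted p = 0.316) at 3 months, and the change was -1.11 ± 0.27 (adjusted p = 0.0316). That change lost its call without any array other than DMD KO replicate 4 and WT replicate 1 at 2 days and DMD KO replicate 1 at 3 months (0.0517 to 0.0793).

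SLC38A2, which cells raise on amino acid shortage and hypertonicity, read 12.08, 12.07, 12.13 and 11.95 in DMD KO and 11.50, 11.27 and 10.08 in WT at 2 days. Its difference was 1.11 ± 0.31 (adjusted p = 0.0404), and a second, dimmer probe set gave 0.76 ± 0.20 (adjusted p = 0.035). Without WT replicate 3, the low animal, the difference was 0.67 and no longer called (0.136). SLC36A4, an amino acid carrier of the SLC36 family, read 7.58, 7.73, 7.60 and 8.27 in DMD KO and 6.69, 7.15 and 6.33 in WT at 2 days, a difference of 1.07 ± 0.27 (adjusted p = 0.0291). SLC3A1 was higher at both ages, by 0.61 ± 0.16 (adjusted p = 0.0322) and 0.63 ± 0.17 (adjusted p = 0.0465). SLC38A6 read 7.82, 7.78 and 8.71 in DMD KO and 7.05, 6.44 and 6.84 in WT at 3 months, a difference of 1.32 ± 0.24 (adjusted p = 0.00567) or 2.5-fold without overlap, which kept its call under each alternative, after 0.66 ± 0.23 (adjusted p = 0.0847) at 2 days. SLC1A5, the glutamine carrier, gave -0.35 ± 0.15 (adjusted p = 0.15) and 0.05 ± 0.16 (adjusted p = 0.876).

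The other amino acid calls depend on single arrays. At 2 days SLC38A2, SLC36A4, SLC3A1, SLC7A8 and SLC7A2 each lost the call without WT replicate 3 (0.136, 0.12, 0.124, 0.0549 and 0.116) and with the axis as covariate (0.167, 0.0721, 0.0912, 0.0905 and 0.0722), where the difference was 0.72 for SLC38A2, 0.62 for SLC36A4 and 0.36 for SLC3A1. The same calls ended on dropping DMD KO replicates 1 to 4 for SLC38A2 (0.0726, 0.0837, 0.0899 and 0.0802) and SLC3A1 (0.0585, 0.0702, 0.0579 and 0.0883). They ended on dropping DMD KO replicates 2 and 4 (0.0588 and 0.0823) and WT replicate 1 (0.0661) for SLC36A4, and on dropping DMD KO replicates 3 and 4 (0.0694 and 0.067) and WT replicate 1 (0.0706) for SLC7A8. For SLC7A2 they ended on dropping DMD KO replicates 1 to 3 (0.0644, 0.0728 and 0.0533), WT replicate 2 (0.0522), under quantile normalization (0.0553) and with array weights (0.0601, at 0.39). In the fit of 2-day arrays alone SLC38A2 (0.0719), SLC3A1 (0.0636), SLC7A8 (0.0598) and SLC7A2 (0.0744) were not called. SLC3A1 at 3 months lost the call on dropping DMD KO replicates 2 and 3 (0.0975 and 0.205), on dropping WT replicates 1 to 3 (0.0639, 0.17 and 0.105), in the fit of 3-month arrays alone (0.07) and under median centring (0.0609).

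By family number the 14 members of SLC2 and SLC5 were grouped under sugars and related solutes, whatever each one carries. Of these 2 were higher at 2 days (14.3%, against 8.06% of all singly named genes) and 1 at 3 months (7.14%, against 5.76%). SLC5A4 (family of the sodium-coupled glucose carriers) read 8.41, 8.23, 8.40 and 8.41 in DMD KO and 7.43, 7.23 and 7.17 in WT at 2 days and 7.83, 7.94 and 7.65 in DMD KO and 7.10, 6.87 and 6.99 in WT at 3 months. All DMD KO animals were above all WT animals at both ages. The differences were 1.08 ± 0.10 (adjusted p = 0.000187), or 2.12-fold, and 0.82 ± 0.11 (adjusted p = 0.000688), or 1.76-fold, and both kept their calls under each alternative tried. It fell with age in DMD KO, with a difference of -0.56 ± 0.10 (adjusted p = 0.00399), and the change of the genotype difference between ages was -0.27 ± 0.15 (adjusted p = 0.444).

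SLC2A4 is GLUT4, the insulin- and contraction-regulated glucose carrier of muscle. It read 8.01, 7.96, 7.89 and 7.92 in DMD KO and 7.50, 7.45 and 7.36 in WT at 2 days and 7.49, 7.40 and 7.17 in DMD KO and 7.49, 7.55 and 7.71 in WT at 3 months. GLUT4 was thus high in the 4 DMD KO animals at 2 days, while the other groups lay together. The difference was 0.50 ± 0.09 (adjusted p = 0.00651), or 1.42-fold, at 2 days and -0.23 ± 0.10 (adjusted p = 0.238) at 3 months, and the change between ages was -0.73 ± 0.14 (adjusted p = 0.00853). The 2-day call, the change between ages and the fall with age in DMD KO, a difference of -0.59 ± 0.09 (adjusted p = 0.00169), kept their calls under each alternative. TBC1D1, a protein that holds GLUT4 vesicles inside the fibre until contraction releases them, read 8.51, 8.30, 8.39 and 8.74 in DMD KO and 6.96, 7.14 and 6.83 in WT at 2 days, a difference of 1.51 ± 0.18 (adjusted p = 0.000643), and gave 0.92 ± 0.19 (adjusted p = 0.0137) at 3 months. That last call ended in the fit of 3-month arrays alone (0.0664) and without DMD KO replicate 3 (0.0572) or WT replicate 3 (0.0685). SLC2A1 (GLUT1) was not analysed here.

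**Figure D4:**
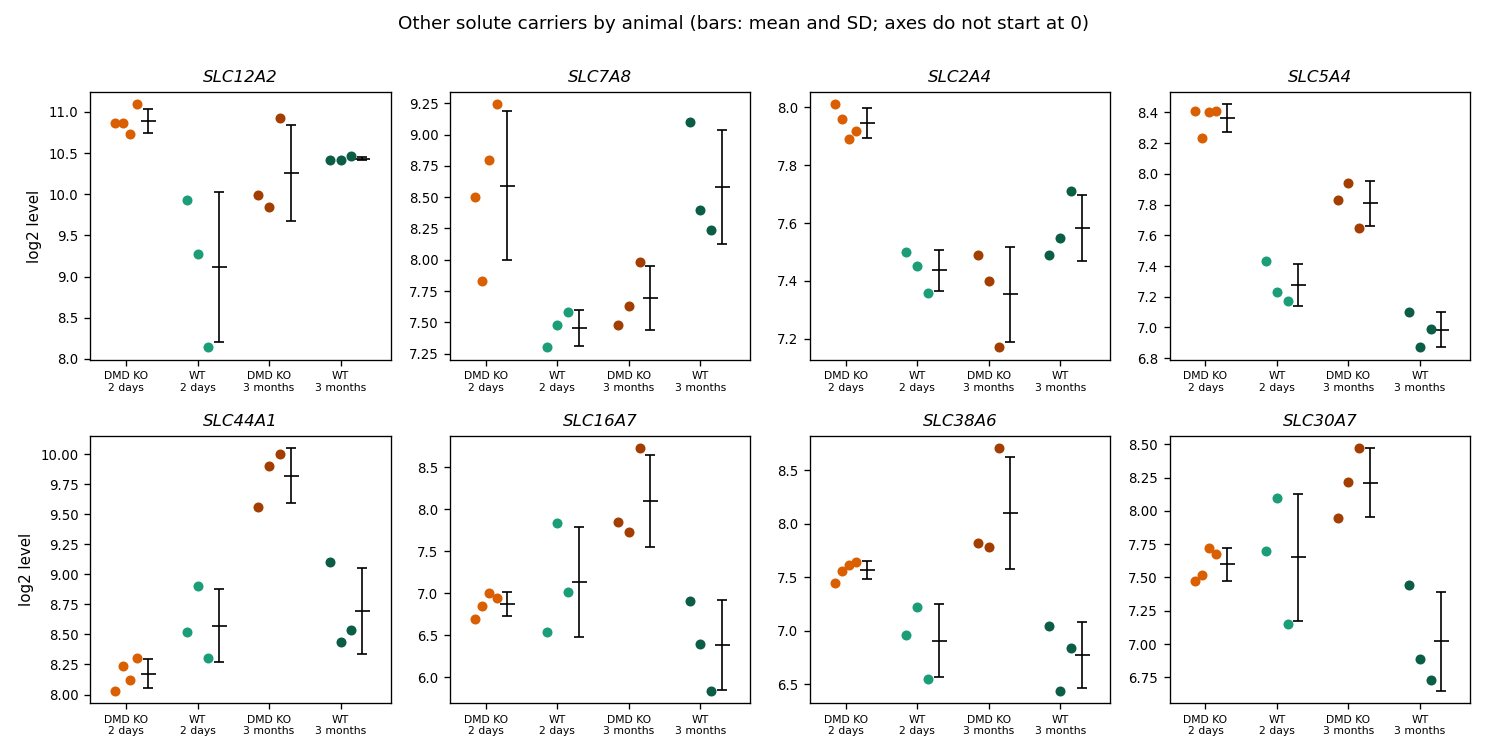
Log2 levels of carriers outside SLC25 in each animal, by genotype and age, with bars for the group mean and SD. SLC5A4 is higher in DMD KO at both ages, SLC2A4 and SLC12A2 at 2 days alone and SLC44A1 at 3 months alone, and SLC7A8 changes side between ages.

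Carriers of inorganic ions and acid equivalents gave 4 higher of 29 at 2 days (13.8%, where 8.06% of all singly named genes were higher) and 2 of 29 at 3 months (6.9%, against 5.76%). SLC12A2, the sodium-potassium-chloride cotransporter that loads cells with chloride and restores their volume, had the largest called genotype difference. It read 10.87, 10.86, 10.73 and 11.09 in DMD KO and 9.93, 9.28 and 8.14 in WT at 2 days and 9.99, 9.85 and 10.93 in DMD KO and 10.42, 10.42 and 10.46 in WT at 3 months. The 4 DMD KO animals at 2 days lay close together and above all WT animals, and at 3 months the genotypes overlapped. The difference was 1.77 ± 0.34 (adjusted p = 0.0078), or 3.41-fold, at 2 days and -0.18 ± 0.37 (adjusted p = 0.803) at 3 months, and the change between ages was -1.95 ± 0.50 (adjusted p = 0.0433). The 2-day value was 1.1 with array weights and 1.28 without WT replicate 3, the lowest WT animal, and its call held in both. The change between ages lost its call without any array other than WT replicates 1 and 3 at 2 days and DMD KO replicate 3 at 3 months (0.0582 to 0.113).

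SLC4A7, which imports bicarbonate with sodium, read 10.44, 10.11, 9.66 and 10.44 in DMD KO and 9.53, 9.21 and 8.19 in WT at 2 days, a difference of 1.18 ± 0.28 (adjusted p = 0.0209), beside 0.71 ± 0.30 (adjusted p = 0.222) at 3 months. SLC8A3, the sodium-calcium exchanger that extrudes calcium from muscle, read 7.56, 7.61, 7.30 and 7.63 in DMD KO and 7.26, 6.51 and 6.82 in WT at 2 days, a difference of 0.66 ± 0.15 (adjusted p = 0.0199). Both had every DMD KO animal above every WT animal. SLC4A10, of the same family as SLC4A7, was called at 0.78 ± 0.21 (adjusted p = 0.0388), with both group means below the lower quartiles. The call on SLC4A7 ended on dropping DMD KO replicates 1 and 4 (0.0517 and 0.0632) and WT replicate 3 (0.0566), in the fit of 2-day arrays alone (0.0734) and with the axis (0.0625, at 0.77), and its value was 0.71 with array weights. That on SLC8A3 ended on dropping DMD KO replicates 2 and 4 (0.0535 and 0.0598) and WT replicate 3 (0.061), in the fit of 2-day arrays alone (0.0701), with the axis (0.0512) and with array weights (0.0584, at 0.36). That on SLC4A10 ended on dropping DMD KO replicates 3 and 4 (0.0642 and 0.107), on dropping WT replicates 1 to 3 (0.0762, 0.0601 and 0.0988), in the fit of 2-day arrays alone (0.107) and with the axis (0.0976).

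At 3 months the ion carriers called were SLC9A9, a sodium-proton exchanger of endosomes, and SLC20A1, a sodium-phosphate importer. SLC9A9 read 7.54, 8.05 and 8.52 in DMD KO and 7.13, 6.78 and 6.89 in WT, a difference of 1.11 ± 0.27 (adjusted p = 0.0275), and SLC20A1 read 8.15, 8.15 and 8.36 in DMD KO and 7.57, 7.30 and 7.27 in WT, a difference of 0.84 ± 0.19 (adjusted p = 0.0198). Neither overlapped. The calls ended on dropping DMD KO replicates 2 and 3 (0.0785 and 0.131) and WT replicates 2 and 3 (0.103 and 0.0942) for SLC9A9, and without DMD KO replicate 3 (0.0913) and WT replicates 2 and 3 (0.0765 and 0.0847) for SLC20A1.

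Monocarboxylate carriers of the SLC16 family pass lactate, pyruvate and ketone bodies. SLC16A7 (MCT2) read 6.69, 6.85, 7.01 and 6.94 in DMD KO and 6.54, 7.84 and 7.02 in WT at 2 days, with overlap, and 7.85, 7.73 and 8.73 in DMD KO and 6.91, 6.40 and 5.84 in WT at 3 months, where all DMD KO animals were above all WT animals. Its differences were -0.26 ± 0.32 (adjusted p = 0.616) and 1.72 ± 0.34 (adjusted p = 0.00989), the largest of the 3-month calls, and the change between ages was 1.98 ± 0.47 (adjusted p = 0.0284). No fold is given, since the WT mean at 3 months lay below the lower quartiles. The 3-month call ended without WT replicate 3 (0.0509), and the change ended on dropping DMD KO replicates 1, 2 and 4 at 2 days (0.0588, 0.0554 and 0.0519), DMD KO replicate 3 at 3 months (0.0636) and WT replicates 2 and 3 at 3 months (0.0601 and 0.0725). SLC16A1 (MCT1), the more general lactate carrier, gave 0.05 ± 0.24 (adjusted p = 0.906) and 0.20 ± 0.25 (adjusted p = 0.677). SLC16A14, a family member without a settled substrate, was lower at 2 days, with a difference of -0.34 ± 0.10 (adjusted p = 0.0453), a call that ended in the fit of 2-day arrays alone (0.106), with the axis (0.141), on dropping DMD KO replicates 1 to 4 (0.0759, 0.112, 0.103 and 0.0535) and on dropping WT replicates 1 and 3 (0.0773 and 0.182).

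Choline, carnitine and other organic solutes fall to 48 members. Of these 2 were higher at 2 days (4.17%, against 11.4% of all singly named genes called either way). At 3 months 2 were higher and 1 lower (6.25%, against 7.36%). SLC44A1, a choline carrier that feeds phosphatidylcholine synthesis, read 8.03, 8.24, 8.12 and 8.30 in DMD KO and 8.52, 8.90 and 8.30 in WT at 2 days and 9.56, 9.90 and 10 in DMD KO and 9.10, 8.44 and 8.54 in WT at 3 months. At 2 days the closest DMD KO and WT animals both read 8.30, and at 3 months every DMD KO animal was above every WT animal. The genotype difference went from -0.41 ± 0.18 (adjusted p = 0.162) to 1.13 ± 0.19 (adjusted p = 0.00347), or 2.18-fold, a change of 1.53 ± 0.26 (adjusted p = 0.00514). With age SLC44A1 rose 3.14-fold in DMD KO, by 1.65 ± 0.18 (adjusted p = 0.000105), beside 0.12 ± 0.19 (adjusted p = 0.903) in WT. These 3 calls held under each alternative tried. SLC22A16, a carnitine carrier, read 6.90, 6.70, 6.74 and 6.84 in DMD KO and 6.31, 6.24 and 6.24 in WT at 2 days, a difference of 0.53 ± 0.10 (adjusted p = 0.00698), and gave -0.07 ± 0.11 (adjusted p = 0.746) at 3 months, a change of -0.60 ± 0.15 (adjusted p = 0.0352) that lost its call without any array other than DMD KO replicate 2 at 2 days and DMD KO replicate 3, WT replicate 1 and WT replicate 3 at 3 months (0.0517 to 0.0859). SLC46A3, a lysosomal carrier, was called at 1.15 ± 0.32 (adjusted p = 0.0376), with both group means below the lower quartiles. The call on SLC46A3 ended in the fit of 2-day arrays alone (0.0534), with the axis (0.155, at 0.75), on dropping DMD KO replicates 1, 2 and 4 (0.0721, 0.0759 and 0.105) and on dropping WT replicate 3 (0.155). SLC27A1, a fatty acid transport protein, gave -0.30 ± 0.12 (adjusted p = 0.117) and -0.04 ± 0.13 (adjusted p = 0.886).

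SLC37A4, which brings glucose 6-phosphate into the endoplasmic reticulum, was called lower at 3 months. It read 7.25, 7.56 and 7.44 in DMD KO and 7.98, 7.74 and 8.30 in WT, a difference of -0.59 ± 0.14 (adjusted p = 0.0276), after -0.12 ± 0.13 (adjusted p = 0.568) at 2 days. With age it rose in WT by 0.93 ± 0.14 (adjusted p = 0.00414), a call that ended in the fit of WT arrays alone (0.111), beside 0.46 ± 0.13 (adjusted p = 0.0507) in DMD KO. The 3-month call ended on dropping DMD KO replicates 1 and 3 (0.102 and 0.0831), on dropping WT replicates 1 and 3 (0.0504 and 0.117) and in the fit of 3-month arrays alone (0.101).

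Of 18 carriers of metals 2 were called higher at 3 months (11.1%, where 5.76% of all singly named genes were higher) and 0 at 2 days. SLC30A7, which loads zinc into the Golgi, read 7.95, 8.22 and 8.47 in DMD KO and 7.44, 6.89 and 6.73 in WT at 3 months, a difference of 1.20 ± 0.23 (adjusted p = 0.00839) or 2.29-fold without overlap, after -0.05 ± 0.22 (adjusted p = 0.898) at 2 days. This call held under each alternative, while the change between ages, 1.25 ± 0.32 (adjusted p = 0.0409), lost its call without any array other than WT replicate 3 at 2 days, DMD KO replicate 1 at 3 months and WT replicate 1 at 3 months (0.0604 to 0.104). SLC39A14, a zinc and iron importer, gave 0.44 ± 0.12 (adjusted p = 0.0493), a call that ended without each 3-month array other than DMD KO replicate 1 (0.055 to 0.213), in the fit of 3-month arrays alone (0.136), under quantile normalization (0.054), under median centring (0.0614) and with the axis (0.0627).

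The SLC35 family moves nucleotide sugars and related donors into the Golgi and endoplasmic reticulum. With the nucleoside carriers it makes 21 members. At 2 days 1 was higher and 1 lower (9.52%, against 11.4% of all singly named genes called either way). At 3 months 1 was higher (4.76%, against 7.36%). SLC35G1 read 9.31, 8.96, 8.50 and 8.53 in DMD KO and 7.70, 7.70 and 7.60 in WT at 2 days and 8.03, 8.20 and 8.48 in DMD KO and 8.45, 7.96 and 8.26 in WT at 3 months. Its difference was 1.16 ± 0.19 (adjusted p = 0.00314), or 2.23-fold without overlap, at 2 days and 0.02 ± 0.20 (adjusted p = 0.971) at 3 months, a change of -1.14 ± 0.28 (adjusted p = 0.0327). The 2-day call held under each alternative, and the change lost its call without DMD KO replicate 2 or any WT array at 2 days, or without DMD KO replicate 1 or 2 or WT replicate 1 or 3 at 3 months (0.0526 to 0.0826). SLC35E3 read 6.38, 6.36, 6.45 and 6.22 in DMD KO and 6.79, 7.40 and 6.91 in WT at 2 days, a difference of -0.68 ± 0.15 (adjusted p = 0.0134), and gave 0.14 ± 0.16 (adjusted p = 0.647) at 3 months. The change between ages was 0.82 ± 0.22 (adjusted p = 0.049), and it lost its call under median centring (0.0609), with array weights (0.0526), and without any array other than WT replicates 1 and 3 at 2 days and WT replicate 1 at 3 months (0.0696 to 0.115). SLC35B3, which carries the sulphate donor PAPS, gave 0.77 ± 0.20 (adjusted p = 0.0392) at 3 months, and SLC18B1, a vesicular polyamine carrier, 0.68 ± 0.17 (adjusted p = 0.0287). The call on SLC35B3 ended on dropping DMD KO replicates 1 and 3 (0.0731 and 0.17) and WT replicates 2 and 3 (0.152 and 0.097), in the fit of 3-month arrays alone (0.0791) and under median centring (0.0514). That on SLC18B1 ended on dropping DMD KO replicates 2 and 3 (0.0816 and 0.137) and WT replicates 2 and 3 (0.0909 and 0.103).

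Shares of carriers called with age lay a little under those of all singly named genes in both genotypes, and the counts of the genotypes were not tested against each other. Between 2 days and 3 months 4 of 205 rose and 1 fell in WT, or 2.44%, against 3.33% of all singly named genes (1.94% higher and 1.39% lower). In DMD KO 8 rose and 10 fell, or 8.78%, against 9.85% (5.7% higher and 4.15% lower). With array weights 7 SLC25 members and 19 other carriers were called in WT. All singly named genes then had 496 higher and 886 lower in WT, in place of 199 and 143 without weights. Of SLC25 1 of 32 fell in WT, and 1 rose and 3 fell in DMD KO (12.5%). The members that rose in WT were SLC22A16, SLC37A4, SLC4A4 and SLC9A2. In DMD KO SLC2A13, SLC4A4, SLC9A2, SLC9A9, SLC16A7, SLC25A24, SLC26A7 and SLC44A1 rose, and SLC1A3, SLC2A4, SLC4A7, SLC5A4, SLC9A3R1, SLC9B2, SLC25A4, SLC25A11, SLC25A33 and SLC38A3 fell. Of these DMD KO calls, those of SLC16A7, SLC26A7, SLC38A3 and SLC9B2 each ended on dropping any of 6 of the 7 arrays. Those of SLC9A9 and SLC4A7 ended on dropping any of 5, and that of SLC9A3R1 any of 3 (0.0506 to 0.146 over these genes). The mean of SLC26A7 over all arrays, 5.84, lay below the lower quartiles. SLC25A4, SLC4A4 and SLC9A2 were called in both genotypes, with the same sign in both. SLC9A2, a sodium-proton exchanger, rose by 0.79 ± 0.15 (adjusted p = 0.0151) in WT and 0.96 ± 0.14 (adjusted p = 0.00111) in DMD KO. A second, dimmer probe set gave 0.91 and 1.02. SLC4A4, an electrogenic sodium-bicarbonate cotransporter, rose by 0.70 ± 0.14 (adjusted p = 0.0202) and 0.62 ± 0.13 (adjusted p = 0.0107). In WT these calls ended in the fit of WT arrays alone (0.154 for SLC9A2 and 0.202 for SLC4A4), without WT replicate 3 at 3 months for SLC9A2 (0.0538) and on dropping WT replicate 1 at 2 days (0.0587) or 3 months (0.0569) for SLC4A4, and in DMD KO that of SLC4A4 ended without replicate 2 at 3 months (0.064).

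SLC1A3, a glutamate carrier, fell with age in DMD KO, with 8.78, 8.35, 8.42 and 8.06 at 2 days and 7.52, 7.48 and 7.08 at 3 months, a difference of -1.04 ± 0.21 (adjusted p = 0.00724). In WT the difference was -0.22 ± 0.22 (adjusted p = 0.822), and the change of the genotype difference was -0.82 ± 0.30 (adjusted p = 0.177). SLC2A13, the proton-coupled myo-inositol carrier, rose in DMD KO by 0.70 ± 0.16 (adjusted p = 0.0153), a call that ended without replicates 2 and 3 at 3 months (0.0614 and 0.0652).

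Markers of some other cells differed between the same groups. The mean log2 level of 5 macrophage markers (of 8 listed) lay between 7.99 and 8.65 in DMD KO and between 6.70 and 6.90 in WT at 3 months, and at 2 days between 6.89 and 6.96 and between 6.57 and 6.82. That of 5 fibroblast markers (of 6) lay between 9.31 and 9.66 in DMD KO and between 10.79 and 10.84 in WT at 2 days, and between 10.93 and 11.05 and between 10.09 and 10.49 at 3 months. T and NK cell markers (5 of 5) lay between 7.48 and 7.78 in DMD KO and 6.93 and 7.72 in WT at 3 months. Muscle fibre markers (4 of 9) ran from 11.46 to 12.26 over all arrays, between 11.71 and 12.01 in DMD KO and between 11.83 and 12.26 in WT at 3 months, so the labelled tissue carried its markers. Within that list MYH7, the slow myosin, was higher in DMD KO at 2 days, at 11.90, 12.15, 11.89 and 12.22 in DMD KO and 10.23, 10.67 and 10.23 in WT, a difference of 1.67 ± 0.33 (adjusted p = 0.00816), and MYH1, a fast myosin, was lower, at 11.57, 11.56, 11.18 and 11.59 in DMD KO and 12.85, 12.23 and 12.07 in WT, a difference of -0.91 ± 0.17 (adjusted p = 0.00615). At 3 months they gave 0.11 ± 0.35 (adjusted p = 0.874) and 0.00 ± 0.18 (adjusted p = 0.997). Endothelial markers (5 of 7) lay between 7.82 and 8.02 in DMD KO and between 7.99 and 8.31 in WT at 3 months, with 4 lower, 1 higher and 0 called. The part of these cells and fibre types in the carrier differences was not tested. Carriers typical of macrophages gave 0.08 ± 0.17 (adjusted p = 0.815) for SLC11A1, the divalent metal carrier of phagosomes, -0.13 ± 0.14 (adjusted p = 0.632) for SLC15A3, whose second, dimmer probe set gave 0.33 ± 0.10 (adjusted p = 0.0915), and 0.28 ± 0.14 (adjusted p = 0.33) for SLC7A7 at 3 months.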

How the data were processed

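RNA of 13 pig muscle samples was measured on whole-transcript arrays. The submitters' processing notes name Affymetrix Power Tools. How probes were summarised and normalized was not given in the sources used here. Values in the deposited table run from 2.81 to 13.8 and were taken as log2 levels because of that range, as no label states the log base. They were used as deposited.

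Probe sets were named from the series' annotation: of 21893, 11028 had 1 symbol, 418 several and 10447 none, and only the first kind was named. Several probe sets existed for 11 of the 205 members. For SLC22A7 and SLC23A1 another probe set repeats the same values. Of 25 carriers listed by name for muscle 14 were measured, and SLC25A5, SLC25A6, SLC2A1, SLC16A3, SLC6A6, SLC6A8, SLC3A2, SLC7A5, SLC7A11, SLC8A1 and SLC40A1 were not analysed here.

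All probe sets were fitted over the 4 groups with limma 3.58.1 in R 4.3.3 (lmFit, eBayes, two-sided, Benjamini-Hochberg over probe sets, called under 0.05), a script tested on simulated data. The labels do not say how the animals of a group are related. Contrasts were genotype at each age, age in each genotype and the change of the genotype difference between ages (interaction, 3 months minus 2 days). These contrasts share groups.

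Genes named were up to 10 called members per direction in each genotype contrast, up to 6 in the others, every SLC25 member called, the fixed carriers and companion genes called. Others were added as examples after their values were seen. The members, lists and tests were chosen with earlier results of these data known. Alternatives were the contrast's groups alone, trend and robust moderation, quantile normalization, median centring, a filter on probe sets below the 25th percentile, array weights, the score on the leading axis of the within-group spread as a covariate, the mean of a gene's probe sets, the replicate number as a block, and each array left out.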

Additional observations from a re-analysis of the deposited data

Results flagged for a closer look

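Single animals stood apart within DMD KO at 2 days, the group of 4, for 6 of 58 genes examined by Dixon's ratio, which chance gives for about 1 in 20. The animal farthest from the other 3 had a log2 level of 10.09 for FTL (ferritin light chain), 8.15 for SLC20A1, 7.02 for SLC2A13, 6.53 for SLC4A4, 8.23 for SLC5A4 and 7.51 for SLC9B2. For SLC5A4 the outlying value still lay above every WT animal at that age.

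The genotype difference at 3 months was called below that at 2 days for SLC7A8 (-2.03), SLC12A2 (-1.95), CKMT2 (-1.78), SLC35G1 (-1.14), SLC7A2 (-1.11), VDAC3 (-1.0), SLC2A4 (-0.73), SLC25A11 (-0.66), SLC25A4 (-0.64) and SLC22A16 (-0.60). It was called above it for SLC16A7 (1.98), SLC44A1 (1.53), SLC30A7 (1.25) and SLC35E3 (0.82). The call on VDAC3 ended on dropping DMD KO replicate 1, 2 or 4 at 2 days or any array at 3 months (0.0534 to 0.0698).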

How the results depend on the processing

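Of 86 called gene results 26 kept their call and sign under each alternative that measured the gene, and in all 86 the sign held. SLC5A4, SLC2A4 and SLC35G1 at 2 days and SLC5A4, SLC30A7, SLC38A6 and SLC44A1 at 3 months are among the 26. The cause of the changes given here was not tested. Counts of called SLC25 members, in the order 2 days, 3 months, age in WT, age in DMD KO and change between ages, were 2, 2, 1, 4 and 2, and of other carriers 16, 12, 4, 14 and 10. With array weights they became 12 (5 higher and 7 lower), 4, 7, 9 and 8 in SLC25, and 40 (22 higher and 18 lower), 26, 19 and 29 in the first 4 comparisons of the others. With the axis score as covariate SLC25 gave 4, 5, 4, 10 and 5, and the others 9 at 2 days, 15 for age in WT and 25 for age in DMD KO. Counts over all singly named genes moved under both settings too, as given above for 2 days. In the fit of the compared groups alone, not run for the change between ages, SLC25 gave 0, 1 and 0 in the first 3 comparisons and the others 8 at 2 days and 0 for age in WT. SLC25 gave 1 at 2 days under quantile normalization, median centring and the filter on dim probe sets, and at 3 months 4 under quantile normalization and 1 with trend and robust moderation. Correlations of deviations between same-numbered arrays ran from -0.495 to 0.33, with a median of -0.056. Between arrays of other numbers they ran from -0.656 to 0.657, with a median of 0.039. Same-numbered arrays were thus not more alike, but deviations within groups this small cannot settle whether the numbers pair animals. With the replicate number as a block, which cannot use DMD KO replicate 4 at 2 days, SLC25 gave 1 at 2 days, 1 at 3 months, 0 for age in WT and 1 for the change between ages, and the others 4, 5 and 4 at 2 days, at 3 months and for the change. The block ended 42 of the 86 called gene results, the most of any alternative, and these losses are left out of the gene lists above. Among results that kept their call elsewhere, the block alone ended SLC12A2 (adjusted p = 0.0565), SLC22A16 (0.0572) and SLC35E3 (0.0892) at 2 days and the change of SLC25A4 (0.0566). Leaving out 1 array gave in SLC25 1 to 4, 0 to 2, 0 to 1, 3 to 5 and 1 to 6, and in the others 6 to 24, 4 to 12, 3 to 8, 6 to 12 and 4 to 8.

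Medians of the other carriers were -0.102 with the dim filter and -0.0289 with the axis at 2 days, -0.0056 with the axis at 3 months, 0.0284 with array weights for age in WT and -0.0151 with array weights for the change. Leaving out 1 array, SLC25 medians ran from -0.144 to -0.0147, -0.132 to -0.0602, -0.123 to -0.0086, -0.0567 to -0.0003 and -0.0604 to 0.112, and those of the others from -0.0763 to -0.0484, -0.107 to -0.0374, -0.0385 to 0.019, -0.0363 to 0.0245 and -0.029 to 0.0385. Signs turned for genes that were not called. At 2 days SLC16A1 gave -0.196 under quantile normalization, -0.244 with the axis and -0.101, -0.0126 and -0.201 on dropping DMD KO replicate 1 and WT replicates 1 and 3, with at most 0.367 on dropping another array. SLC25A12 gave -0.0881, -0.0268, -0.128 and -0.0854 under quantile normalization, array weights, the axis and the loss of WT replicate 3, and at most 0.246 on dropping an array. SLC39A14 gave -0.0095 and -0.0084 on dropping DMD KO or WT replicate 2, and at most 0.0852. At 3 months ATP1B1, SLC16A1 and SLC27A1 gave -0.0241, -0.0338 and 0.0843 with the axis, and SLC25A20 and SLC25A3 0.0435 and 0.0532 with array weights. On dropping DMD KO replicate 1 SLC25A20 and SLC25A3 gave 0.116 and 0.0284, and on dropping WT replicate 2 SLC25A20, SLC25A3 and SLC27A1 gave 0.0938, 0.0134 and 0.0039, where other arrays gave down to -0.15, -0.0915 and -0.0731. SLC12A2 gave 0.0261 on dropping DMD KO replicate 2 and down to -0.515 otherwise, and SLC1A5 -0.0073 and -0.0047 on dropping DMD KO replicate 3 or WT replicate 1 and up to 0.138 otherwise.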
